A study of Drosophila melanogaster with 12 samples.

Results

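The genes described here are hdc (headcase, FBgn0010113) and unk (unkempt, FBgn0004395), 2 of the 12216 genes in the deposited table of Drosophila melanogaster wing imaginal disc expression. They were chosen by symbol, and with their levels across hormone doses in these same libraries already known, so their levels and differences are given as a description without a test. Both passed the filter on low values used for all tests, with which 8455 genes were tested. Per the labels, the discs came from wildtype (w1118) larvae, were taken 24 h past the L2-L3 moult, and stood in Dye medium for 2.5 h at 25°C. 20E (20-hydroxyecdysone, the moulting hormone of insects) was added at 0, 20, 200 or 2000 nM, with 3 libraries at each dose. All groups share the genotype, the stage and the culture, and the 0 nM discs were cultured too, so no group is a disc taken directly from a larva. The series' title asks how the effect of the ecdysone receptor on proliferation depends on the level of its ligand. Nothing in the labels says that replicates were separate cultures or animals, so every error and p-value rests on the scatter among the libraries alone, which may be technical.

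Headcase is a cytoplasmic protein known as a marker of imaginal cells, the diploid cells set aside in the larva to build the adult, and its human relative is HECA. Unkempt carries CCCH zinc fingers and a RING finger, and its mammalian relative binds messenger RNAs and lowers their translation. In Drosophila the 2 proteins bind each other and act with the insulin and TORC1 pathway, which couples growth to nutrition. They are known to hold back tissue growth and cell cycle progression when nutrients are short, which is why they are called growth restraint genes.

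In the BDGP6.54 gene annotation both genes lie on chromosome arm 3R, hdc on the plus strand and unk on the minus strand. No source used here names the build behind the deposited counts, and positions are therefore given only as the arm and the order of genes. The current symbol of hdc in that annotation is heca. It is a long gene of 94.5 kb with 15.1 kb of exons and 4 transcripts. Transcripts RA and RC have the same 4518 bases of exon but coding parts of 1950 and 3240 bases, for 650 and 1080 residues. This pair reflects the known reading of ribosomes through the hdc stop codon, which gene counts cannot show. Transcript RD encodes the 650-residue protein with 11842 bases of 3′ UTR, against 1553 in RA, and RB encodes 201 residues. The unk gene is compact, 8.21 kb long with 6.33 kb of exons, and its 7 transcripts encode proteins of 599 to 673 residues. An annotated gene on the opposite strand, lncRNA:CR46114, shares 256 exon bases with hdc, and no gene overlaps unk. The protein-coding gene CG34300, also on the opposite strand, overlaps hdc with 0 shared exon bases. Neither of these genes has deposited values of its own. The library kit keeps strand but the strand setting of the counting is not stated. Reads of lncRNA:CR46114 over those 256 bases therefore could not be told apart from hdc reads. A separate gene, Hdc with a capital letter (FBgn0005619, histidine decarboxylase), is a different row, at 1.69 to 94.6 normalised counts.

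Summed over the 12216 genes, libraries held 9034719 to 27006374 reads, and 1 read equalled 0.565 to 1.69 normalised counts. Reads outside these genes are not included. Values are normalised counts, meaning reads divided by a size factor per library. The 12 wing disc epithelium markers fixed for the tissue check (such as vg, nub, sd and ap) were all tested. Their summed level was 41889 to 46048 at 0 nM, 45851 to 48645 at 20 nM, 48399 to 53723 at 200 nM and 51222 to 56774 normalised counts at 2000 nM. Of them 8 rose and none fell at 2000 nM (limma, 0 lower at an unadjusted p below 0.05), where 15.4% of all tested genes rose and 15.5% fell. Adult muscle precursor markers summed to 3650 to 4500 at 2000 nM against 4486 to 5061 at 0 nM, and 3 of 7 fell and 1 rose. Trachea markers summed to 22241 to 23211 against 26986 to 28822, and 2 of 6 fell and 1 rose. Neuron and glia markers summed to 876 to 1077 against 580 to 776, with brp, fne and repo at 0 in 3 to 6 of the 12 libraries. Of the 3 of them tested, 1 rose and 0 fell. In mean, elav stood at 681 at 2000 nM against 359 at 0 nM, and moody at 257 against 278. Blood cell markers summed to 61.6 to 272 against 27.8 to 463, with NimC1, eater and lz at 0 in 2 to 6 libraries. Fat body markers summed to 71.5 to 142 against 41.5 to 1637, so they were uneven within 0 nM. The part of these cells in the results below was not tested.

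hdc was high without hormone and lower at every dose. At 0 nM its 3 libraries held 20977, 20495 and 20513 normalised counts, from 16024, 19238 and 32440 reads. At 20 nM they held 5008, 5469 and 6268 normalised counts (2969, 9674 and 9266 reads). This was already below every 0 nM library. At 200 nM they held 914, 694 and 726 normalised counts, and at 2000 nM 581, 473 and 948. The 0 nM libraries stood far above all others, the 20 nM libraries lay between, and the 200 and 2000 nM libraries overlapped. Since these are bulk discs, fewer cells with hdc RNA and less hdc RNA per cell cannot be told apart.

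unk held nearly the same level at every dose. Its libraries held 3363, 3132 and 3335 normalised counts at 0 nM and 3916, 3328 and 3071 at 20 nM. They held 3631, 2689 and 3184 at 200 nM and 3724, 2785 and 3031 at 2000 nM. The 4 groups overlapped throughout. The library of replicate 1 was the highest at each of the 4 doses, and that of replicate 2 the lowest at 0, 200 and 2000 nM. The means were 3277 ± 126, 3438 ± 433, 3168 ± 471 and 3180 ± 487 normalised counts from 0 to 2000 nM (SD, n = 3), so the differences between doses were smaller than the spread within the hormone doses.

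**Figure D1:**
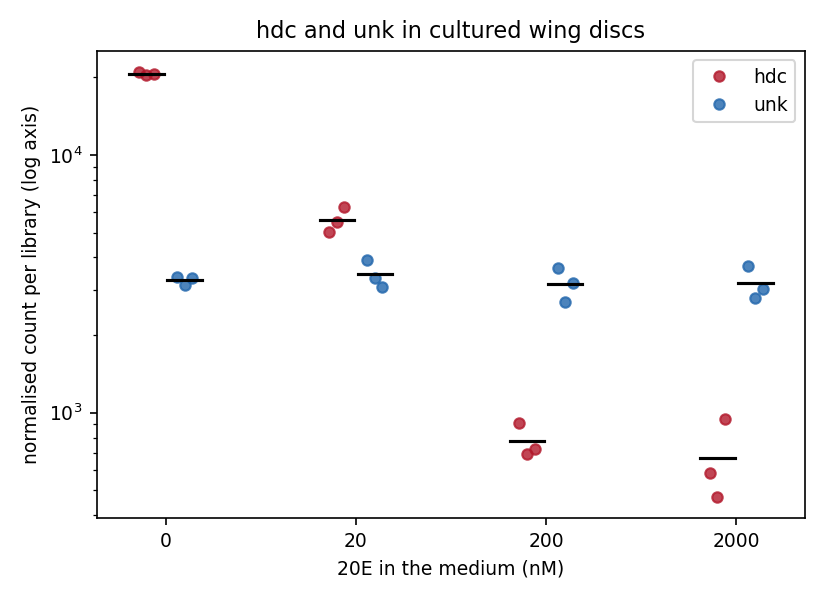
Normalised counts of hdc (red) and unk (blue) in each of the 12 libraries on a log axis, by 20E dose on the x axis, with 1 point per library and a black bar at the mean of 3. The hdc points go down to 473 to 948 at 2000 nM, against 20495 to 20977 at 0 nM, while the unk points stay between 2689 and 3916 at all doses.

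Relative to its 0 nM mean, hdc stood at 27.0% at 20 nM, 3.77% at 200 nM and 3.23% at 2000 nM. Its log2 difference from 0 nM was -1.89 ± 0.19 at 20 nM (SE, 3 libraries a dose), with 5581 ± 638 against 20662 ± 273 normalised counts (SD). At 200 nM it was -4.74 ± 0.19, with 778 ± 119 normalised counts, and at 2000 nM -5.01 ± 0.19, with 667 ± 249. As folds these are levels 3.72, 26.7 and 32.3 times lower than at 0 nM. At each dose all hdc libraries lay below all 0 nM libraries, as did those of 8.18% of all tested genes at 20 nM, 17.4% at 200 nM and 21.0% at 2000 nM.

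On the log2 scale the step from 20 to 200 nM held most of the hdc difference, 56.8% of it, while in normalised counts the step from 0 to 20 nM held 75.4% and that from 20 to 200 nM 24.0%. The level of hdc at 200 nM was 7.19 times lower than at 20 nM (log2 difference -2.85 ± 0.19). From 200 to 2000 nM the log2 difference was -0.27 ± 0.19, with a 95% interval of -0.68 to 0.13. A further drop to 0.625 of the 200 nM level and a gain to 1.10 times that level both lie within it. This interval and those given next rest on a spread pooled over all doses. The log2 SD of hdc was 0.019 at 0 nM, 0.213 at 200 nM and 0.515 at 2000 nM. These intervals may therefore be too narrow for the step from 200 to 2000 nM. The SE of that step was 0.209 with only the doses compared. The size of this last step rested on single libraries. It was -0.56 (95% interval -0.83 to -0.29) without 2000 nM replicate 3, -0.057 (-0.43 to 0.31) without 2000 nM replicate 2 and -0.15 without 200 nM replicate 1. On the log2 scale, 37.8% of the hdc difference at 2000 nM was present at 20 nM and 94.5% at 200 nM. Over the 1312 genes that fell at 2000 nM the medians of these shares were 33.3% and 76.5%. Over the 74 of them with a log2 difference of -2 or lower, the medians were 39.0% and 88.7%. hdc thus had a share at 20 nM close to the median of such genes, and 26 of the 74 had a higher share than hdc at 200 nM.

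Ordered by log2 difference from 0 nM, hdc was the 18th lowest of the 8455 tested genes at 20 nM, the 5th lowest at 200 nM and the 3rd lowest at 2000 nM. The genes below it at 2000 nM were CG6142, at 2.43 against 376 normalised counts, and ftz-f1, at 31.7 against 2203. At 20 nM the lower genes included chinmo, at 1529 against 6363 normalised counts. All other genes below hdc at 20 nM had means of at most 532 normalised counts at 0 nM. In the authors' deposited table the log2 fold change of hdc at 2000 nM against 0 nM is -4.99 with a standard error of 0.228, and that of unk is -0.055 with 0.082.

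For unk the log2 difference from 0 nM was 0.063 ± 0.12 at 20 nM, -0.059 ± 0.12 at 200 nM and -0.053 ± 0.12 at 2000 nM (SE). The 95% interval at 2000 nM ran from -0.32 to 0.21, which holds levels of 0.803 to 1.16 times that at 0 nM. At 20 nM it ran from -0.20 to 0.33 and at 200 nM from -0.32 to 0.20. The interval at each dose lay far from the hdc difference at that dose. These values rest on 1762 to 6246 unk reads per library.

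The relative spread of hdc between replicates was smallest at 0 nM. Its coefficient of variation was 1.3% at 0 nM, 11.4% at 20 nM, 15.3% at 200 nM and 37.4% at 2000 nM, with 299 to 1263 reads in the last group. Replicate 3 at 2000 nM was the highest, and without it the coefficient of variation there was 14.6% and the log2 difference from 0 nM -5.30. The pooled SD on the log2 scale was 0.291 for hdc and 0.179 for unk, against a median of 0.138 over all tested genes. A smaller SD than that of hdc was found in 78.3% of tested genes, and a smaller SD than that of unk in 64.0%.

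Which of the 2 genes had the higher level depended on dose, and at 20 nM also on the scale. Per kilobase of annotated exon, hdc stood at 1372 ± 18.1 normalised counts and unk at 518 ± 19.9 at 0 nM (SD, n = 3). At 20 nM hdc stood at 371 ± 42.3 and unk at 543 ± 68.5, at 200 nM hdc at 51.7 ± 7.89 and unk at 501 ± 74.4, and at 2000 nM hdc at 44.3 ± 16.6 and unk at 503 ± 76.9. The ratio of hdc to unk per kilobase was 2.58 to 2.75 in the 0 nM libraries, 0.537 to 0.857 at 20 nM, 0.0958 to 0.108 at 200 nM and 0.0656 to 0.131 at 2000 nM. The ratios of 0, 20 and 200 nM did not overlap. In normalised counts not divided by length, the ratio at 20 nM was 1.28 to 2.04, so hdc was still above unk in every library there, and it was 0.228 to 0.258 at 200 nM. The long 3′ UTR of transcript RD makes up most of the hdc exon length, so its level per kilobase would be higher if the discs used the shorter transcripts, which was not tested. By level per kilobase hdc ranked 680th of 8419 genes with a length at 0 nM and 6656th at 2000 nM, while unk ranked between 2071st and 2327th at all doses.

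The genes whose pattern was most like that of hdc were named by Pearson's r of log2 levels over the 12 libraries, among 4603 other genes with a symbol and a mean of at least 50 normalised counts. Libraries of a dose share their treatment, so r here mostly measures how alike 2 genes are over the 4 doses, and it is given with no p. The closest was chinmo, a BTB transcription factor gene of immature cells, at r = 0.993, with 285 ± 121 normalised counts at 2000 nM against 6363 ± 512 at 0 nM. Second was ps (pasilla), a splicing regulator gene, at r = 0.993, with 839 ± 136 against 4384 ± 224. Next was scyl (scylla), which encodes an inhibitor of TORC1, at r = 0.992, with 4971 ± 502 against 12839 ± 361. DOR, a gene linked to ecdysone signalling and autophagy, followed at r = 0.988, with 154 ± 96.4 against 1837 ± 47.8. CLIP-190, a microtubule binding protein gene, Ae2, an anion exchanger gene, and vari, a septate junction gene, had r = 0.987 each. The eighth was chrb (charybde), the paralogue of scyl and likewise a TORC1 inhibitor gene, at r = 0.987, with 2598 ± 370 against 5265 ± 296. As the choice by r implies, all 8 were lower at 2000 nM than at 0 nM in mean. Their log2 differences ran from -0.62 for vari to -4.55 for chinmo, against -5.01 for hdc. Of these 8, 5 to 7 stayed among the 8 closest when a library was left out.

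**Figure D2:**
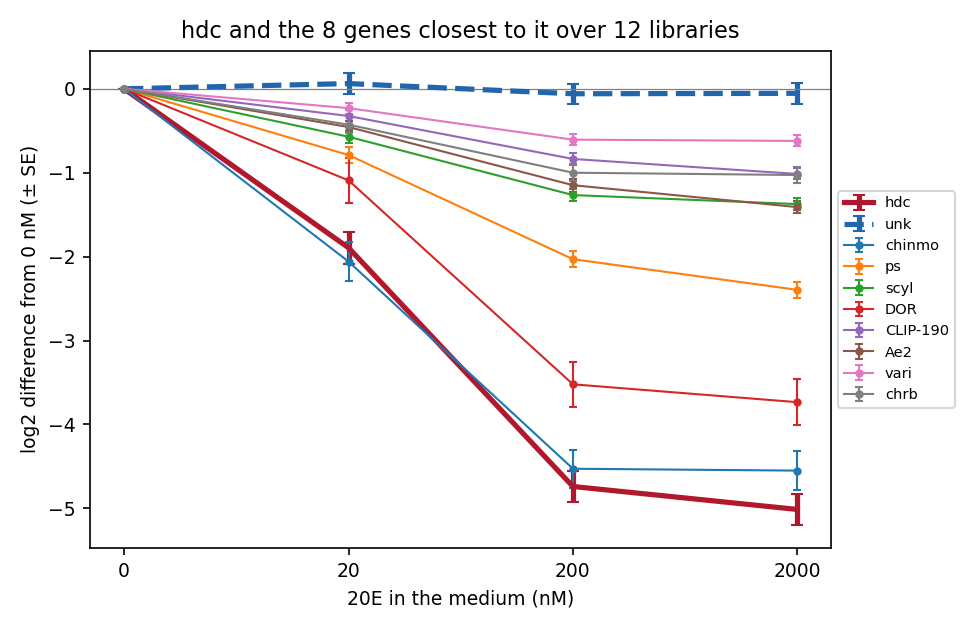
Log2 difference from the 0 nM mean at 20, 200 and 2000 nM 20E (± SE) for hdc (thick red), unk (dashed blue) and the 8 genes with the highest Pearson's r to hdc. As the 8 were chosen for their likeness to hdc, their lines share its bend at 200 nM by that choice. In size chinmo is closest at -4.55 and vari least at -0.62, and unk stays near 0.

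For unk the closest genes were Tlk (r = 0.959), MED23 (0.944), fmt (0.940), zormin (0.929), emb (0.927), Ge-1 (0.923), ec (0.919) and Taf1 (0.918). As unk hardly varied with dose, this likeness rests on the scatter between libraries, including the high libraries of replicate 1. Of the 8, 4 to 8 stayed among the closest when a library was left out.

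Other genes of the pathway were read from a list of 30 insulin and TORC1 genes that held neither hdc nor unk, of which 29 were tested. At 20 nM 3 rose and 3 fell, at 200 nM 4 and 3, and at 2000 nM 6 and 6 (limma, Benjamini-Hochberg adjusted p below 0.05). With a library left out, 8 to 13 members passed at 2000 nM. The calls of Rheb, RagA-B and Lst8 at that dose were lost under 10, 7 and 6 of 22 alternatives. Their limma adjusted p was 0.0385, 0.0361 and 0.0354, and at most 0.143, 0.129 and 0.154 across alternatives. Over all tested genes 2.97% rose and 1.54% fell at 20 nM, 9.92% and 10.4% at 200 nM, and 15.4% and 15.5% at 2000 nM. The list's median log2 difference was -0.012, 0.019 and -0.0060 at these doses, against -0.0015, 0.0031 and -0.0040 over all tested genes. The members that moved went both ways. The TORC1 inhibitor genes scyl and chrb went the way of hdc. For scyl the log2 difference was -0.57 ± 0.07, -1.27 ± 0.07 and -1.37 ± 0.07 from 20 to 2000 nM (SE), and it fell at each dose (limma adjusted p = 3.3e-09 at 2000 nM). chrb fell by 1.00 ± 0.10 at 200 nM and 1.03 ± 0.10 at 2000 nM, adjusted p = 1.81e-06. Its fall of 0.43 ± 0.10 at 20 nM (adjusted p = 0.0189, range 0.00267 to 0.102 across alternatives) was lost without 0 nM replicate 1 (0.0840) or 3 (0.0533) and without 20 nM replicate 1 (0.0610) or 2 (0.102). Among the genes nearest the insulin signal, 2 went the other way from hdc and others did not pass. The insulin receptor gene InR rose by 2.02 ± 0.15 log2 at 2000 nM (adjusted p = 1.19e-07) and the kinase gene Pdk1 by 4.06 ± 0.09 (adjusted p = 3.17e-13). At the same dose chico stood at -0.044, Pi3K92E at 0.13 and Pi3K21B at -0.20, and none of these passed.

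Other members of that list also moved at 2000 nM. ImpL2, which encodes an insulin-binding protein, rose by 3.70 ± 0.33 log2. Ilp8, a relaxin-like hormone gene, rose by 4.78 ± 0.67 log2, to 406 against 16.2 normalised counts, the 0 nM libraries holding 14, 26 and 4 reads. Its call at 20 nM (adjusted p = 0.0259, range 0.00881 to 0.312 across alternatives) was lost without 0 nM replicate 3 (0.0766) or 20 nM replicates 1 (0.0682) or 2 (0.147), with only the doses compared (0.0666) and with limma-voom on recovered reads (0.312). foxo, a transcription factor gene that insulin signalling restrains, fell by 0.45 ± 0.09 log2 at 20 nM and 0.32 ± 0.09 at 2000 nM. The call at 2000 nM (adjusted p = 0.0179, range 0.00844 to 0.0636 across alternatives) was lost without 0 nM replicate 1 (0.0611) or 2000 nM replicates 2 (0.0567) or 3 (0.0636).

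Of 22 other growth and proliferation restraint genes, all tested, 1 rose and 1 fell at 20 nM, 5 and 3 at 200 nM, and 5 and 5 at 2000 nM, beside the shares of all genes given above. The calls of Rbf and Rbf2, both falls at 2000 nM (limma adjusted p = 0.0411 and 0.0125), were lost under 9 and 1 of 22 alternatives. None of the 22 genes fell as far as hdc in mean. The lowest was Tob, an antiproliferative factor gene, at 24.5 against 62.8 normalised counts, a fall of 1.51 ± 0.34 log2 at 2000 nM (adjusted p = 0.00379). dap, which encodes a Cdk inhibitor, fell by 0.71 ± 0.08 log2. brat, a growth-restraining translational repressor gene, went the other way from hdc, to 25176 against 5786 normalised counts, a rise of 2.11 ± 0.13 log2 (adjusted p = 1.21e-08). The Hippo pathway kinase genes wts and hpo rose by 0.40 ± 0.08 and 0.27 ± 0.06, and E2f2, a repressing E2F gene, by 0.35 ± 0.07. The upstream Hippo gene kibra fell by 0.40 ± 0.10 at 2000 nM. Its call at 20 nM (adjusted p = 0.0493, range 0.00467 to 0.196) was lost when scaled by all reads (0.0699), with only the doses compared (0.0676) and without any of 9 single libraries, which left 1 called gene in the list at that dose.

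Because the mammalian relative of unk works with the CCR4-NOT deadenylase, 16 tested genes of that complex and of poly(A) binding and messenger RNA decay were read beside it. None rose at any dose and none fell at 20 nM by limma, and at an unadjusted p below 0.05 these counts were 0 too. The shares over all tested genes were 2.97% risen and 1.54% fallen at 20 nM, 9.92% and 10.4% at 200 nM, and 15.4% and 15.5% at 2000 nM. For 16 genes a count of 0 at 20 nM is close to these shares. larp, an RNA-binding protein gene, was the only member that fell, by 0.72 ± 0.14 log2 at 200 nM and 0.71 ± 0.14 at 2000 nM (adjusted p = 0.0018). Without 200 nM replicate 1, 2 members passed at 200 nM, and with the replicate number as a block 1 passed at 20 nM and 3 at 200 nM. The list's median log2 difference was -0.025 at 2000 nM, against -0.0040 over all tested genes and -0.053 ± 0.12 for unk. Not1, which encodes the scaffold of the complex, stood at -0.14 ± 0.12.

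Genes of imaginal progenitors and of temporal identity were read beside hdc because hdc marks imaginal cells. Of 13 tested, 3 rose and 3 fell at 20 nM, 6 and 4 at 200 nM, and 6 and 4 at 2000 nM, where 15.4% of all tested genes rose and 15.5% fell. At 20 nM those shares were 2.97% and 1.54%, and at 200 nM 9.92% and 10.4%. The list was chosen with earlier results of these data known and holds genes induced by ecdysone, so its counts are a description only. The falling genes chinmo, ab and ftz-f1 stood at log2 differences of -4.55 ± 0.23, -2.70 ± 0.06 and -6.38 ± 0.38 at 2000 nM, against -5.01 for hdc. The ftz-f1 call at 20 nM (adjusted p = 0.0216, range 1.16e-06 to 0.0878) was lost without any 0 nM library (0.0623 to 0.0682) and without 20 nM replicates 1 (0.0783) or 2 (0.0878). br and Sox14, transcription factor genes induced by ecdysone, rose by 3.30 ± 0.13 and 2.55 ± 0.07 log2. Blimp-1, also induced, rose to 4680 normalised counts at 2000 nM, against 1 read in all 0 nM libraries together. Of the other members, hth, tsh and Syp rose by 0.60 ± 0.09, 0.39 ± 0.06 and 0.84 ± 0.12 log2 at 2000 nM. Imp fell by 0.60 ± 0.13 log2 at that dose. The genes esg, Kr-h1 and dpn did not pass at any dose, and esg stood at 0.046 ± 0.06 at 2000 nM.

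**Figure D3:**
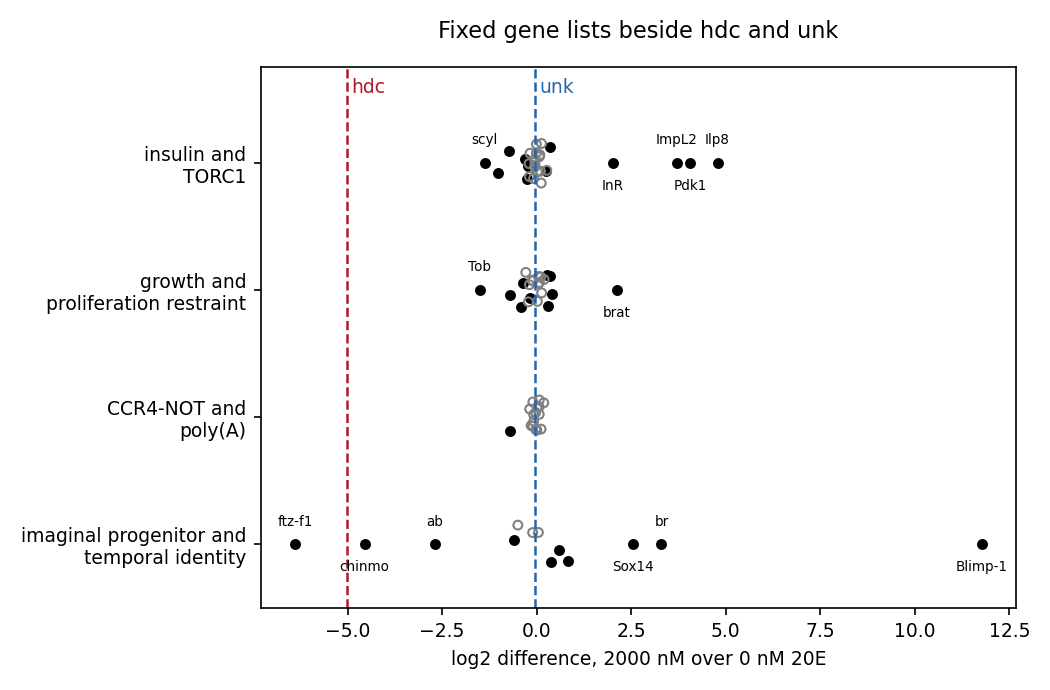
Log2 difference of 2000 nM over 0 nM 20E for each tested gene of 4 lists (1 point a gene, filled where the adjusted p was below 0.05, names given at 1.3 or beyond), with dashed lines at hdc (-5.01) and unk (-0.053). ftz-f1 alone lies to the left of hdc. Open points are genes that did not pass, so most lie near 0, where unk also lies. The Blimp-1 value depends on the 1 added before the log2 step.

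Position gave a further set of genes, the 3 nearest tested genes on each side of either gene in RefSeq's gene order. Before hdc on the arm lie CecC, CG9737 and CG9733, and after it Fer1HCH, Fer2LCH and CG15535. CG9733, the nearest on that side, fell at each dose, at 41.6 against 120 normalised counts at 2000 nM (log2 difference -1.52 ± 0.23, adjusted p = 0.000142). CG9737 fell by 3.85 ± 0.78 log2 at 2000 nM, at 2.10 against 35.6 normalised counts. Its calls at 20 and 200 nM (adjusted p = 0.0184 and 0.0173, highest 0.0881 and 0.0668 across alternatives) were lost without 0 nM replicate 2 (0.0703 and 0.0575) or 3 (0.0881 and 0.0668). They were also lost without 20 nM replicate 1 (0.0601, at 20 nM) and 200 nM replicate 3 (0.0607, at 200 nM). The ferritin subunit genes Fer1HCH and Fer2LCH fell by 0.28 ± 0.07 and 0.25 ± 0.07 log2 at 2000 nM, a small share of the hdc difference. That of Fer2LCH (adjusted p = 0.0142, range 0.00256 to 0.0682) was lost without 0 nM replicate 2 (0.0617) or 3 (0.0682). CecC and CG15535 did not pass, at -1.36 ± 0.65 and 0.25 ± 0.14.

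Around unk, the order on the arm is CG31365, CG31457 and hh before it and cnc, Rad60 and EloA after it. hh, the Hedgehog ligand gene, rose by 0.40 ± 0.06 log2 at 2000 nM (adjusted p = 0.000198), at 1432 against 1088 normalised counts. cnc, a stress response transcription factor gene, rose by 1.04 ± 0.12 (adjusted p = 1.88e-05), and Rad60 fell by 0.43 ± 0.08 (adjusted p = 0.00121). The other 3 did not pass at any dose. Over both sets of 6 neighbours, none rose (1 at an unadjusted p below 0.05) and 2 fell at 20 nM, 2 and 4 at 200 nM, and 2 and 5 at 2000 nM. Of all tested genes 2.97% rose and 1.54% fell at 20 nM, 9.92% and 10.4% at 200 nM, and 15.4% and 15.5% at 2000 nM. Without 0 nM replicate 2 or 3, the count at 200 nM was 3 instead of 6, and the count at 20 nM was 1 instead of 2, as it was without 20 nM replicate 1.

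**Figure D4:**
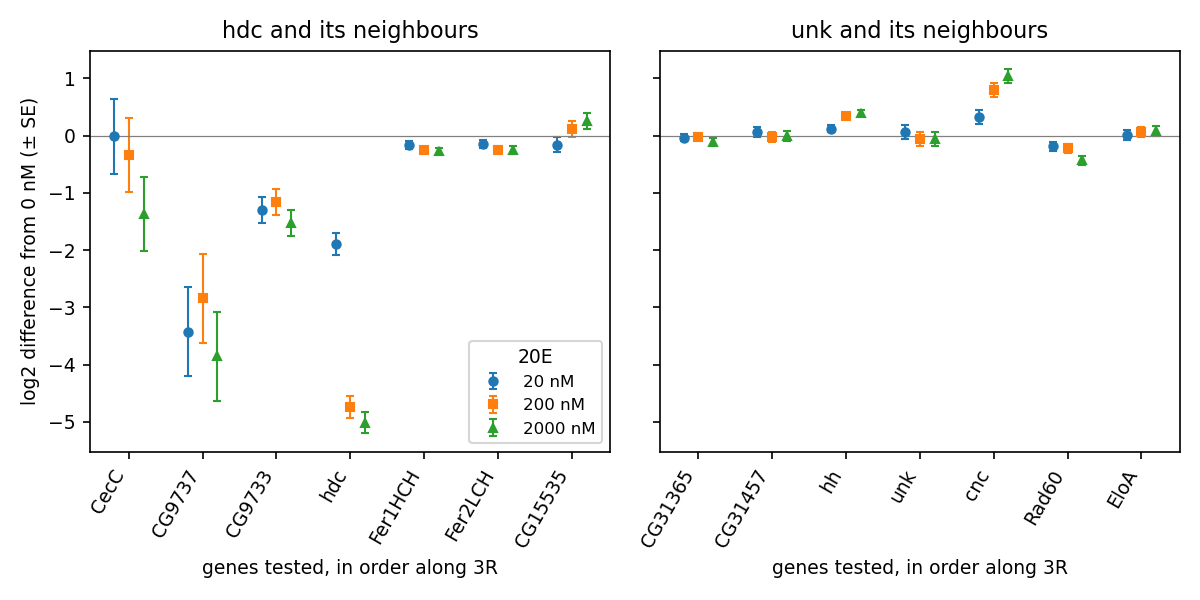
Log2 difference from 0 nM (± SE) at 20, 200 and 2000 nM 20E for hdc (left panel) and unk (right panel) and the 3 nearest tested genes on each side, in their order along chromosome arm 3R. hdc at -5.01 lies beside CG9733 at -1.52 and Fer1HCH at -0.28, and unk at -0.053 lies between hh at 0.40 and cnc at 1.04.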

How the data were processed

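RNA from the 12 libraries (RNeasy extraction, directional poly(A) kit) was sequenced, per the labels. The authors deposited 1 table of normalised counts, a signal made by dividing whole reads by a size factor per library. They also deposited a table of log2 fold changes with standard errors, a test statistic (score) and p-values. The submitters' processing notes name DESeq2 1.32.0, Subread 2.0.1, SAMtools 1.13 and HISAT2 2.1.0, with no settings. The deposited p-values match a chi-square with 3 degrees of freedom, a test over all 4 doses. Multiplying back by the size factors gave whole reads for 100% of values (within 0.001).

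Genes with at least 10 normalised counts in at least 3 libraries were tested on log2(value + 1) with limma 3.58.1 (R 4.3.3), all 12 libraries sharing 1 fit with 8 residual degrees of freedom, Benjamini-Hochberg adjustment over 8455 genes and a threshold of 0.05. Folds on this scale understate changes of low genes. The fit was tested on simulated data. The comparisons share the 0 nM libraries. Members and lists were chosen with earlier results of these data known. Named genes are list members past the threshold at 20 nM and up to 6 a list with the smallest adjusted p at 2000 nM. The 3 nearest tested genes a side and the 8 most alike to hdc or unk are also named. Some other list members are given beside them. Gene lengths come from BDGP6.54 (12167 of 12216 identifiers matched), the order of genes from RefSeq's gene table (assembly Release 6 plus ISO1 MT, 11152 identifiers placed), and 132 of 137 list entries matched. Alternatives covered scaling, filter, pseudocount, the libraries in the fit, a replicate block and each library left out.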

Additional observations from a re-analysis of the deposited data

How the results depend on the processing

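Over 22 alternatives the hdc log2 difference ran from -1.98 to -1.82 at 20 nM, -4.86 to -4.66 at 200 nM and -5.30 to -4.80 at 2000 nM, and that of hdc at 2000 against 200 nM from -0.56 to -0.057. The unk difference, whose interval held 0 at each dose, changed sign with a library left out, and ran from -0.035 to 0.14 at 20 nM, -0.16 to 0.054 at 200 nM and -0.17 to 0.037 at 2000 nM. Counts moved as follows. Leaving out a library gave 8 to 13 insulin and TORC1 genes at 2000 nM. In the restraint list at 20 nM, 1 gene passed instead of 2 when scaled by all reads or with only the doses compared, and 1 to 2 with a library left out. With the replicate block, 1 CCR4-NOT and poly(A) gene passed at 20 nM instead of 0 and 3 at 200 nM instead of 1, and leaving out a library gave 1 to 2 at 200 nM. Of the neighbours, 1 instead of 2 passed at 20 nM with the filter at 50, and leaving out a library gave 1 to 2 at 20 nM and 3 to 6 at 200 nM. Of the 8 genes closest to hdc 5 to 7 stayed, and of those closest to unk 4 to 8. The cause was not tested. No hdc difference from 0 nM and no called gene named here changed sign. Same-numbered libraries deviated with correlations of -0.367 to 0.396 (median 0.0567, 18 pairs). Those of different number did so with -0.381 to 0.382 (median -0.0471, 36 pairs). Of the 12 libraries, 6 correlated best with their own number. Whether libraries of a number share more than that number was not tested. The block lowered the SE of unk to 0.0743, against 0.122 without it. Scaling by all reads, upper quartile scaling and limma-voom were chosen after seeing the data. The planned edgeR and DESeq2 tests were not run. In their place limma-voom was run on the reads recovered from the normalised values. Depth in recovered reads differed 2.99-fold, and genes of few reads, such as CG9737 and Ilp8, are the least certain.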
